A study of Oryctolagus cuniculus with 3 samples.

Results

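The comparison of progression sets the abdominal aorta of 1 model rabbit (AS 30 day, where AS stands for atherosclerosis) against that of 1 control rabbit (AS 0 day), and so uses 2 of the 3 arrays of the series. Both animals were adult male New Zealand white rabbits, 3 months old at purchase and kept in cages. The model rabbit had received chow with added cholesterol and peanut oil together with balloon injury of the abdominal aorta. In that injury an inflated catheter strips and stretches the vessel wall. The study describes its control rabbits as uninjured and fed chow ad libitum without added cholesterol or fat. The title of the control sample begins with PBS, an abbreviation the labels use for the buffer in which the aortas were washed. The remaining array (recovery, AS 60 day) came from a rabbit given the diet and injury of the model group, then 4 weeks without added cholesterol. The labels call this last diet normal and the study's methods call it caloric restriction. Values of the recovery array are given only beside the others. The rabbits were picked from their groups under the guidance of pathological sections and intravascular ultrasound, so diet, injury, time and the individual animal cannot be told apart, and the differences are between these 2 vessels, not between 2 conditions. The members are the probes at least 4-fold apart between the 2 arrays after values under 4.37 on the log2 scale had been set to that floor. They were 2568 of 27985 probes above the floor in at least 1 of the 2 arrays, with 1130 higher and 1438 lower in the model array.

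The wall of the aorta is built of an intima with its endothelial lining, a media of contractile smooth muscle cells and elastic sheets, and an adventitia of fibroblasts, small vessels, nerves and adjoining fat. In atherosclerosis lipoproteins gather in the intima, macrophages take up their lipid, and smooth muscle cells of the media migrate, divide and lay down matrix. After balloon injury the lining is lost and the neointima is made largely by smooth muscle cells. A piece of excised aorta holds all of these layers in proportions that depend on the lesion and on how much adventitia and fat was taken with it.

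Each array gave the log2 signal of 43603 gene probes, and 26165 of them (60.0%) lay above the floor in each. The arrays had been given the same distribution by quantile normalization, and the levels correlated across probes with r = 0.938, where probes are not independent replicates. Of the spiked-in control transcripts, 8 lay above the floor in both arrays, and they read lower in the model array by a median log2 difference of -0.46 (range -0.91 to -0.07). Shifting the ratios by that amount moved the median log2 ratio of the tested probes to 0.48, against 0.05 as deposited, and changed the balance of the 4-fold probes from 44% higher and 56% lower to 64% higher and 36% lower. Directions below are those of the deposited scale, and a list count is given again after the shift where it moved by more than 1.5 times or turned. No test was possible with 1 array in each group, and the number of arrays limits the precision.

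Most probes differed little. The median absolute log2 ratio was 0.52, and the quartiles lay at -0.49 and 0.55. The 4-fold probes made up 4.04% of the tested probes in the higher direction and 5.14% in the lower direction. Among the 1130 higher probes the median log2 signal was 9.01 in the model array and 5.79 in the control array. Among the 1438 lower probes it was 5.93 in the model array and 9.27 in the control array. In 306 of the higher probes (27.1%) the control value lay at or below the floor, and in 340 of the lower ones (23.6%) the model value did, so that their fold is only a bound. At least 8-fold differences were seen for 475 higher and 575 lower probes, and at least 32-fold differences for 92 higher and 139 lower probes. The plot of the levels in both arrays shows these probes with some of the genes described below.

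**Figure D1:**
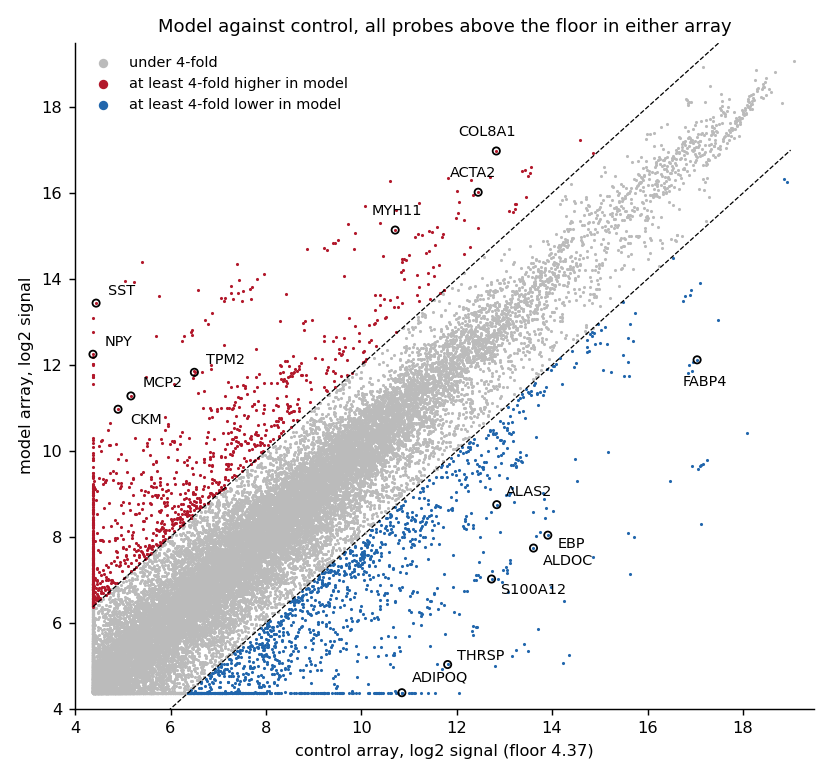
Log2 signal of the 27985 tested probes in the model array (vertical axis) against the control array (horizontal axis), with values below the floor set to it; dashed lines mark 4-fold differences, red points are at least 4-fold higher and blue points at least 4-fold lower in the model array, and circles mark named genes. The 1130 red points lie mainly at low control signal and the 1438 blue points reach up to the brightest control signals, such as FABP4 at 12.12 in the model array and 17.04 in the control array.

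The 2 directions drew on different parts of the control range. Of the 1820 probes at or below the floor in the control array, 306 (16.8%) were at least 4-fold higher in the model array. Of the 7896 probes with a control level of 4.37 to 6.37, 369 (4.67%) were higher, and no fall of 4-fold can be seen that close to the floor. Where the control level was 10.37 to 12.37, 59 of 2767 probes (2.13%) were higher and 277 (10%) were lower. At 12.37 to 14.37 the count was 15 higher (1.38%) and 147 lower (13.5%) of 1086 probes. Above 14.37 only 2 of 702 probes (0.285%) were higher and 58 (8.26%) were lower. Part of this contrast follows from placing probes by 1 of the 2 values that form their ratio. Placed by the mean of both levels, 3.21% of the probes at 10.37 to 12.37 were higher and 5.55% lower, and above 14.37 the shares were 1.96% and 2.26%. The named genes show which transcripts fill these ranges. At a control level of 12.37 to 14.37 the 4 named genes that were higher were COL8A1, ACTA2, MYL9 and CALD1, a collagen of the vessel wall and 3 parts of the smooth muscle contractile apparatus. Above 14.37 no named gene was higher. There, FABP4 and RBP4, carriers of fatty acids and of retinol, were lower, and so was TSPO, a cholesterol-binding protein of the mitochondrial membrane that was chosen after its values were seen. TSPO had a log2 signal of 12.57 in the model array and 14.74 in the control array. The other two named genes lower in that range carry provisional names.

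**Figure D2:**
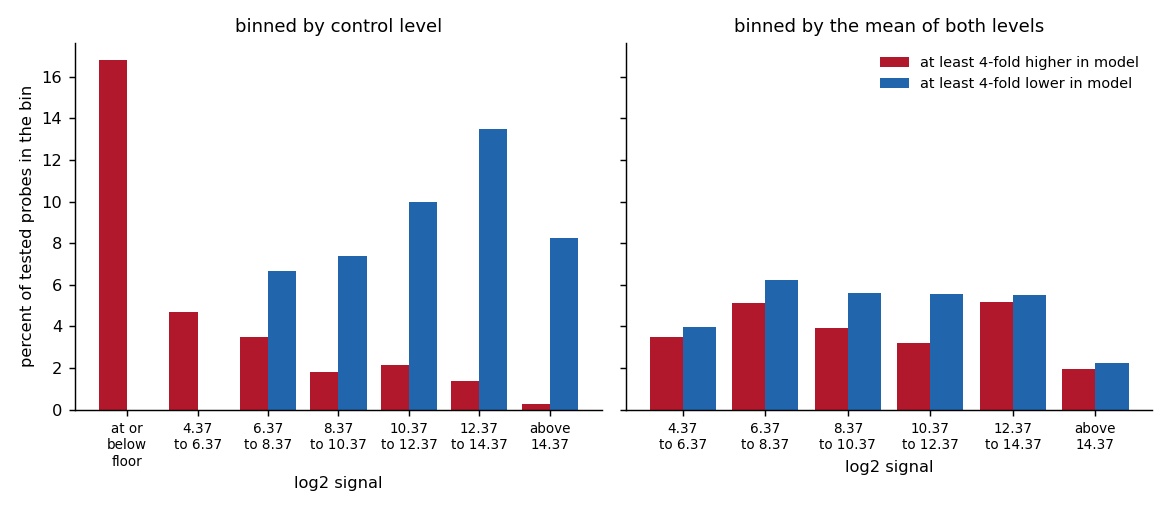
Percent of tested probes in each range of log2 signal that were at least 4-fold higher (red) or lower (blue) in the model array, with probes placed by their control level (left) or by the mean of the model and control levels (right). By control level the lower share reaches 13.5% at 12.37 to 14.37, and by mean level both shares stay between 1.96% and 6.25% throughout.

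Neighbouring probe numbers on this array mostly moved together. Of 927 probes at least 4-fold higher whose next or previous number was also tested, 807 (87.1%) had a neighbour at least 4-fold higher as well, against 5.17% of all 20335 tested probes with a tested neighbour. Among the lower probes 842 of 951 (88.5%) had such a neighbour, against 5.35%. Across 15369 adjacent pairs the ratios correlated with r = 0.88. Adjacent numbers may belong to 1 transcript, and both values come from the same pair of arrays, so this describes the reading of the probes and not the spread between animals.

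The deposited table carries probe numbers without gene names. A gene of the study's list of changed genes was named where a single probe matched the listed log2 ratios of model and of recovery over control, each within 0.006, and all values given are those of the probe. In this way 1619 tested probes received a gene, among them 142 at least 4-fold higher (8.77%) and 259 at least 4-fold lower (16%) in the model array. The study chose its list on these arrays, so the direction of a gene on it is no independent evidence, and both shares lie above those of all tested probes. About 15.1 of these 401 names are expected to be chance matches. Of the genes at least 4-fold apart that are described, TMEM135, CTSB, MTHFD1, HSD11B1, AQP7, CDKN1A, PLXNB1, ALAS1, COL4A3, MFAP5, CACNA1C, IL1R2, GPI and DYSF have the least certain names, with 0.101 to 0.273 chance matches expected for each. Genes under 4-fold lie where probes are denser and are often less certain still. Among those described, the chance matches expected reach 0.535 for LEP and MRC1, 0.495 for CD74 and 0.394 for ROCK2 and PKM. Just inside the threshold lay PLXNB1 and CDKN1A, at log2 ratios of 2.009 and 2.02, and just outside it COBLL1 at 1.999 and ZFPM2 at 1.987. On the lower side TMEM135 lay just inside at -2.001 and PSMF1 just outside at -1.997. Of the 401 genes, 211 stand on at least 1 of 31 lists of cell type markers and pathways, and the counts by list are plotted below. A member at or below the floor in 1 array was tested only because it was above it in the other, so its direction was fixed by the filter. Counts for many lists, and medians for some, are therefore given over the members above the floor in both arrays as well. Other list counts include members whose direction the filter fixed.

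**Figure D3:**
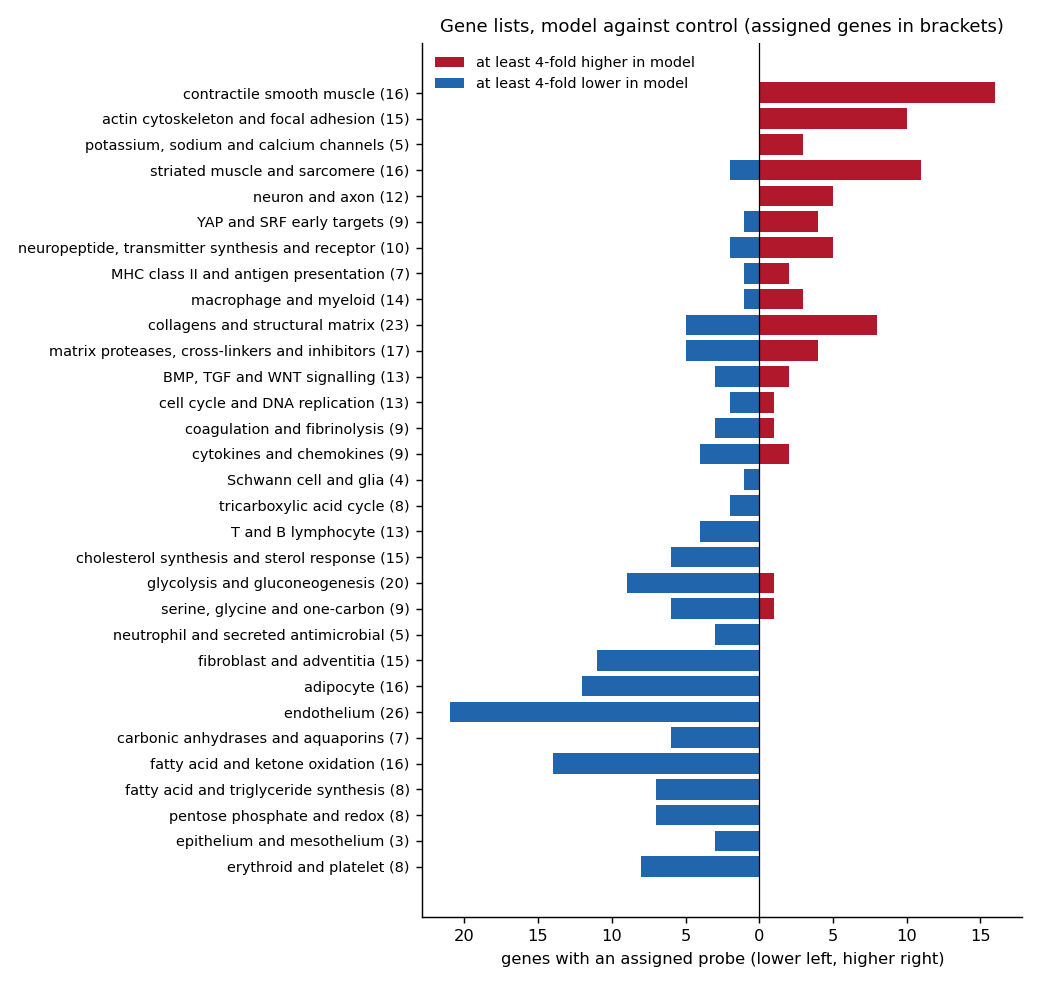
Number of genes of each list with an identified probe at least 4-fold higher (red, to the right) or at least 4-fold lower (blue, to the left) in the model array, with the number of identified genes in brackets. Smooth muscle, adhesion, sarcomere and neuron lists lie at the top, with 16 of 16 contractile genes higher, and the endothelial, lipid, redox and erythroid lists at the bottom, with 21 of 26 endothelial genes lower.

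Genes of the contractile apparatus of smooth muscle were higher in the model array throughout. All 16 identified genes of that list were at least 4-fold higher, and so were the 14 above the floor in both arrays, with a median log2 ratio of 3.26, against -0.75 over all named genes and 0.05 over all tested probes. TPM2, a tropomyosin that lies along the actin filament, had a log2 signal of 11.83 in the model array and 6.50 in the control array, a 40.2-fold difference. HSPB6, a small heat shock protein involved in relaxation, had 9.48 in the model array and 4.73 in the control array (27.0-fold). MYH11, the myosin heavy chain of smooth muscle, had 15.14 in the model array and 10.71 in the control array (21.5-fold). A second probe named PBV1SPCR2, which RefSeq gives as a synonym of MYH11 and which was chosen after its values were seen, was at least 21.5-fold higher. MRVI1, a target of the nitric oxide and cyclic GMP relaxation pathway, was 18.6-fold higher, and PPP1R12B, a targeting subunit of myosin phosphatase, 12-fold. The actins ACTG2 and ACTA2 had 15.12 and 16.02 in the model array, against 11.43 and 12.45 in the control array. These are differences of 12.9-fold and 11.9-fold. LMOD1, an actin nucleator, had 9.23 in the model array and lay below the floor in the control array, at least 28.9-fold higher. The smallest differences of the list were those of CALD1, the actin-binding caldesmon, at 5.51-fold, the large-conductance potassium channel subunit KCNMB1 at 5.47-fold and the L-type calcium channel subunit CACNA1C at 4.53-fold. Of the defining markers, ACTA2, MYH11 and TPM2 lay above the floor in both arrays and LMOD1 only in the model array. MYLK, also set as a defining marker, was not among the 16 identified genes. In the recovery array ACTA2, MYH11 and TPM2 stood at 16.45, 15.66 and 12.42.

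In a bulk extract, fewer cells of a type and less RNA per cell cannot be told apart, and quantile normalization balances a gain of some transcripts by a loss of others. The summed signal of the 16 contractile genes was 17.94 on the log2 scale in the model array and 14.79 in the control array. Among the lists of other cell types, the summed signal of the neuron list was also higher, at 10.26 in the model array and 6.79 in the control array, and so was that of the striated muscle list, at 13.71 and 12.21. All remaining lists of cell types had lower sums in the model array. For adipocytes they were 14.03 in the model array and 17.70 in the control array, and for endothelium 13.16 and 17.25. Fibroblasts and adventitia had 13.61 and 15.18, granulocytes 9.08 and 13.09, and lymphocytes 7.53 and 10.47. Erythroid cells and platelets had 11.77 and 14.59, macrophages 12.87 and 14.07, glia 9.9 and 13.35, and epithelium 4.46 and 9.08. These sums take in values below the floor. In the control array 11 of the 12 neuron genes lay at or below it. In the model array 11 of the 13 lymphocyte genes and all 3 epithelial genes did. The filter fixed the direction of those members, so the sums of these lists are no separate sign of a difference. Single genes made up most of some control sums. In the control array FABP4, on the adipocyte and endothelium lists, had 17.04. CD36 had 13.61 for macrophages and S100B 13.34 for glia. The part of these cell types in the contractile difference was not tested.

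Genes of the sarcomere and of the muscle membrane were higher too, although the tissue holds no striated muscle by its label. Of 16 identified genes 11 were at least 4-fold higher and 2 at least 4-fold lower, and of the 11 above the floor in both arrays 7 were higher and 2 lower. CKM, the muscle creatine kinase, had 10.97 in the model array and 4.90 in the control array (67.2-fold), and SGCA, a sarcoglycan of the complex that ties the membrane to the matrix, had 11.56 and 6.07 (45.0-fold). CASQ2, which stores calcium in the sarcoplasmic reticulum, was 17.8-fold higher, and JPH2, which holds that reticulum to the surface membrane, 16.9-fold. MYOM1, a protein of the M-band, and FHOD3, a formin of the sarcomere, had 9.43 and 9.04 in the model array and lay below the floor in the control array, at least 33.2-fold and 25.3-fold higher. Several members of this list, such as CASQ2, HSPB2 and SGCD, also occur in smooth muscle. In the other direction lay DYSF, a membrane repair protein, with 9.50 in the model array and 11.77 in the control array (4.81-fold lower). After the shift by the spiked-in controls 13 genes of the list were higher and 0 lower at 4-fold. Among further members SGCD was 6.55-fold and SGCB 3.77-fold higher.

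Genes that link the actin skeleton to the matrix followed. Of 15 identified genes of the actin and focal adhesion list, 10 were at least 4-fold higher and none was lower. The 13 members above the floor in both arrays had a median log2 ratio of 2.65. TES, a LIM protein of focal adhesions, had 14.71 in the model array and 9.84 in the control array (29.2-fold). SORBS2, an adaptor of stress fibres, was 16.1-fold higher, and FLNA, the filamin that cross-links actin, was 15.9-fold higher, with 10.98 in the model array and 6.98 in the control array. ACTN1, the non-muscle actinin, was 7.02-fold higher, MYH9, a non-muscle myosin heavy chain, 6.28-fold, and TGFB1I1, a LIM adaptor also known as Hic-5, 7.25-fold. Below the threshold, the integrin gene ITGA1 was at 1.44 on the log2 scale and the kinase gene ROCK2 at 1.00. Among 5 identified channel genes, 3 were at least 4-fold higher. These were KCNMB1 and CACNA1C, already described, and ANO4, a member of the anoctamin family, at least 4.49-fold higher.

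YAP and SRF are regulators of transcription that respond to stretch and to actin assembly. Of 9 identified genes on the list of YAP and SRF early targets, 4 were at least 4-fold higher, 1 lower and 4 under 4-fold. Of the 6 above the floor in both arrays 3 were higher and 1 lower. NOV, now called CCN3, had 13.02 in the model array and 8.30 in the control array (26.4-fold). The related matrix-associated proteins CTGF (CCN2) and CYR61 (CCN1) were 15.1-fold and 7.85-fold higher, with 10.29 and 12.15 in the model array, against 6.38 and 9.18 in the control array. ANKRD1, a nuclear ankyrin repeat protein, was at least 6.10-fold higher. The immediate early genes on the list were under 4-fold, with JUN at 1.31 and FOS at -1.37 on the log2 scale. F3, tissue factor, which starts coagulation, was 7.01-fold lower, with 4.66 in the model array and 7.47 in the control array.

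Structural matrix genes went both ways. Of 23 identified, 8 were at least 4-fold higher and 5 at least 4-fold lower. Of the 16 above the floor in both arrays 6 were higher and 4 lower, with a median log2 ratio of 1.28. SPP1, osteopontin, had 10.59 in the model array and 5.94 in the control array (25.1-fold). COL8A1, a short-chain collagen made by migrating smooth muscle cells, had 16.98 and 12.83 (17.8-fold). SPARCL1, a matricellular protein of the SPARC family, was 11.4-fold higher, and the leucine-rich repeat proteoglycans PRELP and FMOD were 9.71-fold and at least 5.21-fold higher. In the opposite direction lay COL5A3, a chain of the fibrillar collagen V, with 5.74 in the model array and 11.75 in the control array (64.5-fold lower). DPT, a dermatopontin that binds decorin, was 16.3-fold lower, and MFAP5, a protein of microfibrils, 8.72-fold lower. The basement membrane chains LAMA3 and COL4A3 were at least 8.63-fold and 4.44-fold lower. The fibrillar collagen COL1A1 differed little, with 13.08 in the model array and 13.66 in the control array.

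Among matrix proteases, cross-linkers and inhibitors the balance depended on the scaling. As deposited, 4 of 17 identified genes were at least 4-fold higher and 5 lower, and after the spiked-in shift 7 were higher and 3 lower. Of the 12 above the floor in both arrays 2 were higher and 5 lower as deposited, with a median log2 ratio of -1.64. PAPPA2, which cleaves insulin-like growth factor binding proteins, was at least 12.1-fold higher, and MMP12, the macrophage elastase, at least 7.42-fold higher with 7.27 in the model array and a value below the floor in the control array. MMP16, a membrane-type metalloproteinase, was 5.58-fold higher. TIMP4 and LOXL2, an inhibitor of metalloproteinases and a cross-linking lysyl oxidase, were 11.2-fold and 10.8-fold lower. The cathepsins CTSE and CTSB were 9.62-fold and 4.23-fold lower. TIMP1 stood under the threshold at 3.67-fold higher. In the coagulation list SERPINE2, protease nexin 1, which inhibits thrombin, was 19.6-fold higher, with 9.25 in the model array and 4.96 in the control array. The anticoagulant receptors of endothelium THBD and PROCR were 4.43-fold and 4.05-fold lower. With F3 they made up 3 lower genes of 9, of which 1 was counted after the shift. Of the 7 coagulation genes above the floor in both arrays, 4 lay above control and 3 below, with a median log2 ratio of 1.06.

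Several neuropeptide genes were bright in the model array and at or near the floor in the control array. Of 10 identified genes of neuropeptides, transmitter synthesis and receptors, 5 were at least 4-fold higher and 2 at least 4-fold lower. Only SST and TH were above the floor in both arrays. SST, the precursor of the peptide hormone somatostatin, had 13.44 in the model array and 4.44 in the control array (513-fold), where the control value lies only just above the floor. NPY, neuropeptide Y of sympathetic nerves, had 12.25 in the model array and lay below the floor in the control array, at least 235-fold higher. RESP18, a protein of neuroendocrine secretory granules, was at least 42.5-fold higher, and TH, the first enzyme of catecholamine synthesis, 9.09-fold, with 7.90 in the model array and 4.72 in the control array. BCHE, butyrylcholinesterase, was at least 422-fold higher with 13.09 in the model array. In the recovery array BCHE stood at 13.30, whereas SST, NPY and RESP18 lay below the floor there. The receptor subunit GRIA3 and HDC, which makes histamine, showed the reverse, below the floor in the model array and at 6.57 and 7.09 in the control array, at least 4.59-fold and 6.56-fold lower.

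Of 12 identified neuron genes 5 were at least 4-fold higher. This count was 0 under a floor at the 60th percentile and 13 under a floor at the 20th percentile, where more genes were tested. In the control array 11 of the 12 lay at or below the floor, so that the filter left no other direction for them. SYT1, the calcium sensor of synaptic vesicles, was at least 11.1-fold higher, PCSK1N, an inhibitor of a prohormone convertase, at least 7.40-fold, and ROBO2, an axon guidance receptor, at least 7.38-fold. MAP2, a dendritic microtubule protein and the only one measured on both sides, had 8.15 in the model array and 5.88 in the control array (4.79-fold). NEFH, the heavy neurofilament, was at least 4.07-fold higher, and GAP43, a protein of growing axons, at least 3.47-fold. The defining markers NEFM, STMN2, SNAP25 and ELAVL4 had no identified probe. The 4 identified glial genes were split. S100B, which is found in Schwann cells and also in adipocytes, was 12-fold lower, with 9.76 in the model array and 13.34 in the control array. GPM6B and PTPRZ1 were at least 3-fold and 1.14-fold higher and CNTN2 at least 1.22-fold lower, and after the spiked-in shift 1 gene of the list was 4-fold higher and 1 lower.

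Macrophage genes showed no common direction, with 3 of 14 identified at least 4-fold higher and 1 lower. Of the 8 above the floor in both arrays 2 were higher and 1 lower. MCP2, which in the rabbit denotes a cationic peptide of macrophages from the defensin family and not a chemokine, had 11.28 in the model array and 5.17 in the control array (69.0-fold). SPP1 and MMP12, described above, were the other members that were higher. The complement genes C1QA and C1QC, made by resident macrophages, had 9.98 and 8.81 in the model array, against 11.07 and 9.88 in the control array. The mannose receptor MRC1 had 8.91 in the model array and 9.71 in the control array. CD36, a scavenger receptor for oxidized lipoproteins that fat and capillary endothelium also carry, was 32.4-fold lower, with 8.59 and 13.61. The summed signal of the list was 12.87 in the model array and 14.07 in the control array. CD36 alone, at 13.61, made up most of the control sum, so the lower sum rests on this gene. Of the class II antigen presentation genes RLA-DMA and RLA-DRB1 were 5.58-fold and 5.45-fold higher, with 13.87 and 13.62 in the model array, against 11.39 and 11.18 in the control array. Their companion CD74, the invariant chain, was 2.12-fold higher. The immunoproteasome subunit PSMB8, which serves class I presentation, was 4.88-fold lower, and after the spiked-in shift no gene of this list was 4-fold lower.

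Of 13 identified lymphocyte genes 4 were at least 4-fold lower, a count that was 0 with the floor at the 60th percentile. In the model array 11 of the 13 lay at or below the floor, against 0 in the control array, and the filter fixed the direction of those 11. The 2 above the floor in both arrays were LTB and CD5, a T cell surface protein, with 5.46 and 5.78 in the model array, against 8.17 and 7.62 in the control array. CD79B, part of the B cell receptor, lay below the floor in the model array and at 8.22 in the control array, at least 14.4-fold lower. FCRLA, a B cell protein, was at least 7.85-fold lower, LTB, lymphotoxin beta, 6.51-fold, and LCK, the kinase of the T cell receptor, at least 6.29-fold. CD3E, a chain of the T cell receptor complex, lay below the floor in the model array and at 5.44 in the control array, which leaves room for a bound of only 2.10-fold. Of 5 identified granulocyte genes 3 were at least 4-fold lower. S100A12 had 7.02 in the model array and 12.73 in the control array (52.6-fold). PGLYRP1, a peptidoglycan-binding protein, was 10.4-fold lower and the decoy receptor IL1R2 4.57-fold. The protease gene MMP9 was only 1.45-fold lower. FPR1 lay below the floor in the model array, at least 3.51-fold lower, and the filter fixed its direction. Among 9 cytokine and chemokine genes, 2 were at least 4-fold higher and 4 lower. Of the 5 above the floor in both arrays 2 were higher and 2 lower. IL17B was 43.6-fold higher, with 9.99 in the model array and 4.55 in the control array. TNFRSF11B, osteoprotegerin, was 9.25-fold higher. The chemokines CCL5 and CCL19, the enzyme IDO1 and LTB were at least 5.36-fold, 5.03-fold, at least 4.87-fold and 6.51-fold lower, and none of these was counted with the floor at the 60th percentile.

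Endothelial genes were lower in the balloon-injured model aorta than in the uninjured control aorta. Of 26 identified genes 21 were at least 4-fold lower and none was 4-fold higher. Of the 19 above the floor in both arrays 17 were at least 4-fold lower, with a median log2 ratio of -2.53. PLVAP, which forms the diaphragms of fenestrae, had 5.09 in the model array and 9.13 in the control array (16.4-fold). CLDN5, a claudin of tight junctions, was 13.5-fold lower, PODXL, a sialomucin of the luminal surface, 11-fold and CD34 9.79-fold. The defining markers PECAM1 and NOS3, an adhesion molecule and the endothelial nitric oxide synthase, were 5.77-fold and 5.53-fold lower, with 6.42 and 6.28 in the model array, against 8.94 and 8.75 in the control array. Both stayed above the floor in the model array, as did the defining marker CLDN5, while 7 of the 26 genes did not. KDR, also set as a defining marker, was not among the 26 identified genes. Much of the list is carried by small vessels as well as by the intima, and CA4 and FABP4, at 63.1-fold and 30.2-fold lower the extremes of the list, are known from capillaries and fat. AQP1, a water channel also found in smooth muscle, was the exception, with 11.30 in the model array and 10.01 in the control array. In the recovery array CLDN5 stood at 8.81, PECAM1 at 7.04 and PLVAP at 4.92.

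Genes of fat cells were lower too. Of 16 identified adipocyte genes 12 were at least 4-fold lower, and of the 10 above the floor in both arrays 8 were, with a median log2 ratio of -2.75. ADIPOQ, the hormone adiponectin, and PPARG, the receptor that drives fat cell formation, lay below the floor in the model array and at 10.85 each in the control array, which gives at least 89.3-fold and 88.9-fold lower. THRSP, a regulator of lipogenesis, had 5.03 in the model array and 11.81 in the control array (109-fold). FABP4 had 12.12 in the model array and 17.04 in the control array. G0S2, an inhibitor of triglyceride lipase, and DGAT1, which makes triglyceride, were 9.33-fold and 8.89-fold lower, and RBP4 was 6.36-fold lower. LEP, leptin, had 5.16 in the model array and 6.24 in the control array and was within 4-fold. The 10 members above the floor in both arrays had log2 ratios of -6.77 to -1.08.

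Fibroblast and adventitia genes were lower in the same array, 11 of 15 at least 4-fold, and 9 of the 11 above the floor in both arrays, with a median log2 ratio of -3.12. IGFBP4, a binding protein of insulin-like growth factors, was 12.9-fold lower, SERPINF1, a secreted inhibitor of angiogenesis, 11.5-fold and THY1, a surface marker of fibroblasts, 5.72-fold. COL14A1 and COL1A1, also on this list, were within 4-fold, at 0.92 and -0.58 on the log2 scale. All 8 identified erythroid and platelet genes were at least 4-fold lower, 6 of them above the floor in both arrays, and 5 were counted after the spiked-in shift. HEMGN, a nuclear protein of blood cell precursors, had 4.90 in the model array and 9.07 in the control array (18.0-fold), and ALAS2, the erythroid enzyme of haem synthesis, had 8.75 and 12.84 (17.1-fold). TREML1, a platelet receptor, was at least 13.4-fold lower. Epithelial and mesothelial genes had 3 identified members, KRT19, PROM1 and DSP, which were tested only through their control values. They lay below the floor in the model array, at least 10.8-fold, 10.9-fold and 4.39-fold lower.

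**Figure D4:**
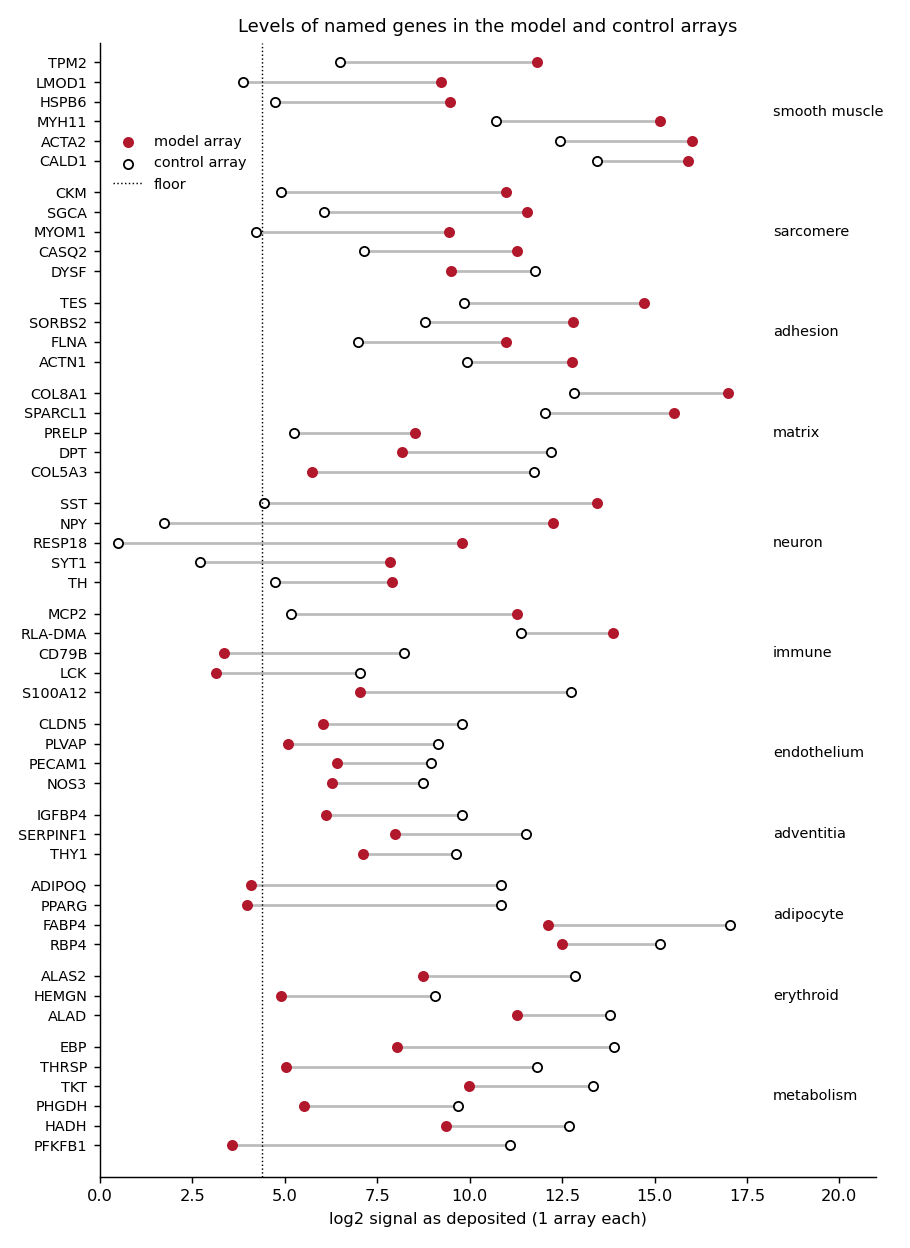
Log2 signal of named genes in the model array (red) and the control array (open circles), 1 array each, grouped by cell type or function, with the floor dotted. TPM2 stands at 11.83 in the model array and 6.50 in the control array, whereas ADIPOQ lies below the floor in the model array and at 10.85 in the control array.

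Genes of lipid metabolism were mostly lower too. THRSP and DGAT1 stand both on the adipocyte list and on that of fatty acid and triglyceride synthesis. In fatty acid and triglyceride synthesis 7 of 8 identified genes were at least 4-fold lower, among them the 5 above the floor in both arrays. AGPAT9, now GPAT3, the first enzyme of glycerolipid synthesis, had 6.20 in the model array and 12.04 in the control array (57.4-fold). ELOVL6, a fatty acid elongase, was 14.9-fold lower, and ACACA, which makes malonyl-CoA, at least 6.52-fold. In cholesterol synthesis and sterol response 6 of 15 were at least 4-fold lower and none higher, against 5 lower and 1 higher after the spiked-in shift. Of the 9 above the floor in both arrays 3 were lower. EBP, a sterol isomerase, had 8.04 in the model array and 13.91 in the control array (58.3-fold). INSIG1, which holds back the sterol-sensing complex, was at least 15-fold lower, and ACAT2, which makes acetoacetyl-CoA, 12.1-fold. APOA2, a protein of high density lipoprotein, was at least 54.7-fold lower, while APOE had 11.10 in the model array and 11.93 in the control array. MYLIP, a ubiquitin ligase that responds to sterols, went the other way at 3.83-fold higher.

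Fatty acid and ketone oxidation had 16 identified genes, 15 of them above the floor in both arrays. At least 4-fold lower were 14 of the 16, of which 7 were counted after the spiked-in shift. HADH, a dehydrogenase of mitochondrial beta-oxidation, had 9.36 in the model array and 12.69 in the control array (10-fold). IVD, which breaks down leucine, was 9.92-fold lower, ACSF2, an acyl-CoA synthetase, 8.32-fold, and ACAA2, a thiolase, 5.77-fold. BDH1, an enzyme of ketone bodies, was 6.20-fold lower. The tricarboxylic acid cycle stayed closer to control. Of its 8 identified genes OGDHL and ACO1 were 5.05-fold and at least 4.04-fold lower, and only 1 of them was counted after the shift. The other 6, such as MDH2 with 11.65 in the model array and 13.20 in the control array, were under 4-fold.

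Of 20 identified genes of glycolysis and gluconeogenesis 9 were at least 4-fold lower and 1 at least 4-fold higher. Of the 11 above the floor in both arrays 4 were at least 4-fold lower and none higher. GPI, the isomerase of the second step, had 10.76 in the model array and 13.42 in the control array (6.34-fold), and KHK, which phosphorylates fructose, was 4.29-fold lower. PFKFB1, PFKFB4 and PFKFB3, which set the level of the activator fructose 2,6-bisphosphate, were at least 106-fold, 36.1-fold and at least 10.3-fold lower. ALDOC, an aldolase isoform known from brain, had 7.74 in the model array and 13.61 in the control array (58.5-fold), whereas ALDOA, the muscle isoform, was 2.30-fold lower with 12.42 and 13.62. FBP1, an enzyme of gluconeogenesis, was at least 21.4-fold lower, SLC16A1, a lactate transporter, at least 10.9-fold, and HK2 at least 5.58-fold, while HK1 lay 1.97-fold higher. PKM, pyruvate kinase, had 10.98 in the model array and 10.21 in the control array. The gene in the other direction was PPP1R3C, a glycogen targeting subunit, at least 4.59-fold higher. SLC2A4, the insulin-responsive glucose transporter, was within 4-fold, at 11.67 in the model array and 13.61 in the control array, and it stood at 13.49 in the recovery array.

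Of 8 identified genes of the pentose phosphate pathway and redox defence 7 were at least 4-fold lower, and all of these were above the floor in both arrays. After the spiked-in shift 5 were lower and 1 higher. TKT, the transketolase of the pentose phosphate pathway, had 9.97 in the model array and 13.33 in the control array (10.3-fold). EPHX2 and EPHX1, the soluble and the microsomal epoxide hydrolase, were 33.2-fold and 12.8-fold lower, CYGB, cytoglobin, 8.24-fold and SOD-2, the mitochondrial superoxide dismutase, 4.81-fold. NOX4, an oxidase of vascular smooth muscle that makes hydrogen peroxide, stood in the other direction at least 3.85-fold higher. In serine, glycine and one-carbon metabolism 6 of 9 genes were at least 4-fold lower and 1 higher, and of the 7 above the floor in both arrays 5 were lower and 1 higher. GLYCTK, glycerate kinase, had 8.11 in the model array and 13.75 in the control array (49.6-fold), and PHGDH, which opens serine synthesis, had 5.52 and 9.68 (17.8-fold). SHMT2 and MTHFD1 were 4.39-fold and 4.09-fold lower. The carbonic anhydrases CA4, CA13, CA2 and CA5B were 63.1-fold, 6.67-fold, 6.14-fold and 4.73-fold lower, and the glycerol channels AQP7 and AQP3 6.26-fold and at least 6.92-fold.

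Signalling genes of the BMP, TGF and WNT families were split, with 2 of 13 at least 4-fold higher and 3 lower as deposited, and 4 higher and 2 lower after the spiked-in shift. Of the 5 above the floor in both arrays 1 was higher and 2 were lower as deposited. The 2 higher genes were DKK3, at least 9.36-fold, and BAMBI, a decoy receptor, 8.94-fold with 10.44 in the model array and 7.28 in the control array. The lower ones included the ligand BMP7, at least 20.2-fold, and DACT2, a modulator of WNT signals, 9.64-fold. TGFB3 lay at 3.81-fold higher and GREM1, an antagonist of BMP, at 2.37-fold higher. Of 13 identified cell cycle and replication genes 2 were at least 4-fold lower and 1 higher. These counts lie near the shares over all named genes, 16% lower and 8.77% higher. CHEK1, a checkpoint kinase, was at least 4.06-fold lower and POLE, a replicative polymerase, 4.56-fold. After the spiked-in shift 1 gene of the list was 4-fold lower. Of the 8 above the floor in both arrays 7 lay below control, with a median log2 ratio of -1.56, where that of all named genes was already -0.75. The replication helicase genes MCM4 and MCM7 were at -1.66 and -1.87 on the log2 scale, and the mitotic genes CDC20, CCNB2 and BUB1 at -1.94, -1.47 and -1.36. CDKN1A, a cell cycle inhibitor, was the gene in the other direction, with 8.80 in the model array and 6.78 in the control array (4.06-fold higher).

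Among the largest differences were genes on none of the lists, which held 190 of the 401. SERPINI1, neuroserpin, an inhibitor of tissue plasminogen activator, had 13.65 in the model array and 8.43 in the control array (37.2-fold) and 13.63 in the recovery array. HGF, the hepatocyte growth factor secreted by mesenchymal cells, had 9.14 in the model array and lay below the floor in the control array, at least 27.2-fold higher. FIBIN, named after fin bud initiation in fish, was at least 56.3-fold higher, and MAMDC2, a secreted protein with MAM domains, 29.6-fold. C14H3ORF52 and PDILT, a testis protein of the disulfide isomerase family, were 43.0-fold and 25.7-fold higher. On the lower side stood PRKAR2B, the regulatory subunit of protein kinase A that is abundant in fat, with 6.24 in the model array and 11.94 in the control array (51.9-fold). AIFM2, which regenerates ubiquinol and protects lipids from peroxidation, was 42.7-fold lower, with 6.74 in the model array and 12.15 in the control array. FAM213A, a peroxiredoxin-like protein, was 37.9-fold lower, TMEM37, a channel subunit, 44.2-fold, and SLC36A2, an amino acid transporter, at least 33.8-fold.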

How the data were processed

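The deposited values are log2 signals of 3 single-colour Agilent rabbit arrays of abdominal aorta RNA, 1 array per group. They were read out by the authors in Agilent Feature Extraction, listed as 10.7 in the submitters' notes, and then quantile-normalized in GeneSpring. How background and replicate spots were handled is not given in the sources used here. The sorted columns differed by at most 0.016, so no normalization was added, and 58 control rows were left out of the counts.

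Values under the 40th percentile of all probe values (4.374) were set to it, and probes above it in the model or control array were tested for a difference of 4-fold. A fold with 1 floored value is a bound. With 1 array per group no p, SD or leave-one-out value exists. Gene names come from the study's list of changed genes, whose log2 ratios were used only to find the single probe within 0.006 on both ratios, which 2186 of 3715 listed rows had. For 371 of the 401 named genes the symbol stands in the RefSeq table (mOryCun1.1), and no coordinates are given because the build of the array is not given in the sources used here. The files hold no probe or promoter sequences, so the motif search was not run.

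The members and the 31 gene lists were chosen with earlier results of these data known. Named genes are, among those at least 4-fold apart, the 15 largest measured differences and 8 largest bounds each way and up to 8 members of each list each way, with up to 3 in the minority direction and without provisional names; not all of them are described, and some are not reported here. CALD1, MYL9, HSPB2, SGCD, THY1, KHK, all genes under 4-fold and the genes in the last section were chosen after their values were seen. The counting was tested on simulated data. Alternatives changed the floor, the scaling, the fold, the match tolerance and the level used for binning. The scripts ran under Python 3.11.15 (pandas 2.3.3, numpy 2.4.6, matplotlib 3.10.9).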

Additional observations from a re-analysis of the deposited data

How the results depend on the processing

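No paired analysis was possible because each group has 1 array, and for the same reason no replicate could be left out. The values show the aortas of 2 rabbits, with no error between animals, and genes with modest differences mostly have no name here. The 4-fold counts moved with the floor and the threshold. The 1130 higher and 1438 lower probes became 657 and 879 under a floor at the 60th percentile, 1975 and 2430 with no floor, 3451 and 3784 at 2-fold, and 475 and 575 at 8-fold. The shift by the spiked-in controls gave 1831 higher probes and a higher share of 64%, against 44% as deposited, and at 2-fold that share was 47.7%. The 142 named higher genes became 216 with the floor at the 20th percentile, 85 at the 60th percentile, 260 with no floor, 237 after the shift, 415 at 2-fold, 64 at 8-fold and 60 with a match tolerance of 0.003. The 259 named lower genes became 144 with the floor at the 60th percentile, 398 with no floor, 170 after the shift, 678 at 2-fold, 90 at 8-fold, 112 with the tolerance of 0.003 and 163 with fewer than 0.05 expected chance matches. Of genes on the lists, the 75 higher became 121 with no floor, 39 at 8-fold and 33 with the narrower tolerance, and the 136 lower became 82 with the floor at the 60th percentile, 55 at 8-fold, 65 with the narrower tolerance and 90 with fewer chance matches. Under a floor at the 60th percentile no gene was 4-fold higher on the lists of neurons and glycolysis, and none was 4-fold lower on the lists of lymphocytes, cytokines, neuropeptides, epithelium, cell cycle, class II presentation, and YAP and SRF targets. The share of lower probes above 14.37, 8.26% by control level, was 2.26% by mean level and 0.427% by model level, and the share of higher probes at 4.37 to 6.37, 4.67% by control level, was 3.47% by mean level and 0% by model level. The balance of higher and lower genes turned under some setting for the lists of BMP, TGF and WNT signalling, proteases, cytokines, coagulation, cell cycle and Schwann cells, and for no other list under the settings run.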

Other observations

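Some genes on no list, all chosen after their values were seen, are given here as values with no explanation. NT5E, the ectoenzyme that makes adenosine, had a log2 signal of 9.78 in the model array and 6.14 in the control array (12.4-fold), and 11.19 in the recovery array. HIF1A, a subunit of the hypoxia-inducible factor, had 8.25 in the model array and 6.19 in the control array (4.18-fold). DTNA, a dystrobrevin of the same membrane complex as the sarcoglycans, was at least 19.1-fold higher, and FABP3, the fatty acid carrier of heart muscle, was 7.72-fold higher, with 8.38 in the model array and 5.43 in the control array, in the direction opposite to FABP4.

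On the lower side KITLG, the ligand of the receptor KIT, was at least 7.51-fold lower, and ACE-1, angiotensin-converting enzyme, had 6.20 in the model array and 8.43 in the control array (4.69-fold). Enzymes of carotenoid, steroid and haem metabolism were among them. BCO2, a carotenoid oxygenase, had 7.99 in the model array and 12.48 in the control array (22.5-fold), HSD11B1, which activates glucocorticoids, was 6.51-fold lower, and ALAS1, the ubiquitous partner of the erythroid ALAS2, was 4.07-fold lower. The cytochrome P450 genes CYP2C30 and CYP2A10 were 8.38-fold and 6.71-fold lower, and whether their probes also read related members of these families was not tested. CD47, which keeps macrophages from engulfing a cell, had 11.36 in the model array and 13.52 in the control array (4.48-fold). NR1D1, a repressor in the circadian clock, had 7.22 in the model array and 9.34 in the control array (4.36-fold lower), and 4.73 in the recovery array. The hour at which the aortas were taken is not given in the sources used here.

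Among the 142 higher named probes, 41 had a neighbouring probe number that was tested, and in 31 (75.6%) that neighbour was also at least 4-fold higher. Among the 259 lower named probes the count was 47 of 75 (62.7%). These shares lie below those of all 4-fold probes, 87.1% and 88.5%.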
